A study of Mus musculus with 6 samples.

Results

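The genes described here are 34 regulators of the cell division cycle: cyclins, cyclin-dependent kinases with their Cks subunits, kinase inhibitors, Cdc25 phosphatases, E2F factors, pocket proteins, and the transcription factors Foxm1, Mybl2 and Myc. They were chosen by name, with earlier results of these data known. A probe with a single gene symbol was found for 33 of the 34, out of 19929 named genes on the array. Ccnb1 had no such probe and has no value here. All 33 passed the filter on dim genes, which removed the 30% of genes with the lowest mean (under 5.471, in log2 units). The AI4 mean of 4 of them (Ccne2, Ccnf, Cdkn2c and Cdc25c) was under that limit, so these 4 passed through their Rip-B7xAI4 values.

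The cells were CD8 T cells that carry the AI4 receptor, a transgenic T cell receptor for a beta cell antigen. They were sorted from pooled pancreata with an antibody to CD8 and the MimA2/H-2Db tetramer. All mice carried the AI4 receptor on a C57BL/6.H2g7/g7 background. The AI4 group (3 arrays) came from mice that developed type 1 diabetes. The Rip-B7xAI4 group (3 arrays) came from mice that in addition carry Rip-B7x, a transgene in which the rat insulin promoter drives B7x (Vtcn1) in beta cells. B7x is a member of the B7 family that restrains T cells. These mice were resistant to diabetes. The sources used here give neither the ages of the mice nor how many were pooled per array. B7x on beta cells and the disease state went together, so their effects on the T cells cannot be told apart. The replicates are labelled biological, and it is their small number, 3 per group, that limits the precision.

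D-type cyclins with Cdk4 or Cdk6 start the cycle by phosphorylating the retinoblastoma family of pocket proteins, which releases E2F factors to switch on the genes of DNA synthesis. E-type and A-type cyclins with Cdk2 carry cells through DNA replication, and B-type cyclins with Cdk1 drive mitosis. Naive CD8 T cells rest outside the cycle, held there in part by Cdkn1b (p27), and antigen sets off rapid rounds of division that depend on Myc and cyclin D2 and D3. Many genes of the late cycle are repressed in resting cells through a promoter element called the cell cycle homology region, and are switched on later by B-Myb and FoxM1. Many of their promoters also hold an element called the CCAAT box.

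Promoters of 6 of these regulators are shown before the values, 5 of genes of DNA synthesis and mitosis and, for contrast, that of Cdk4. RefSeq promoter sequences of build GRCm38.p6 matched 25 of the 34 genes. The 250 bases before each start site were searched on both strands for the E2F motif (TTCGCGC with the variants TTGGCGC and also TTCCCGC), the cell cycle homology region (TTTGAA or else TTCGAA), the CCAAT box (CCAAT) and the E-box bound by Myc (CACGTG). The E2F letters TTGGCGC can overlap a CCAAT box read on the other strand. The last 150 bases before the start are printed 5′ to 3′ along the gene's strand, with every motif match in capitals.
Cdk1, the mitotic kinase, chr10:69352913-69353062, minus strand: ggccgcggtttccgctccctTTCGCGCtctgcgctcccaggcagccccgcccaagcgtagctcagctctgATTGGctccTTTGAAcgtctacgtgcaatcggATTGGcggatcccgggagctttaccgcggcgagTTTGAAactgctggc
Cks1b, a Cks subunit, chr3:89418292-89418441, minus strand: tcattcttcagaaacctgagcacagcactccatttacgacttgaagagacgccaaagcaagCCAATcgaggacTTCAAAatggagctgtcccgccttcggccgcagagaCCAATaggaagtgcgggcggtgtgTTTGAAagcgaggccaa
Ccnf, cyclin F, chr17:24251410-24251559, minus strand: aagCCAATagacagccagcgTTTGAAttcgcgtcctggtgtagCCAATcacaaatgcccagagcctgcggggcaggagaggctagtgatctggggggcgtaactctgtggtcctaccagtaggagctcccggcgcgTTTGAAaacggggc
Ccnb2, cyclin B2, chr9:70421555-70421704, minus strand: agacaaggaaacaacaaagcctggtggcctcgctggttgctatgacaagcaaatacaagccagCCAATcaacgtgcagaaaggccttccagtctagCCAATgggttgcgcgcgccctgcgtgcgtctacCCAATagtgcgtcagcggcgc
E2f8, a repressing E2F, chr7:48881597-48881746, minus strand: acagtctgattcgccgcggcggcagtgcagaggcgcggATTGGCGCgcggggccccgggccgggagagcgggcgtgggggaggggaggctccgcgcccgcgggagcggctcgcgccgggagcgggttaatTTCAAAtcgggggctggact
Cdk4, the partner of D-type cyclins, chr10:127063385-127063534, plus strand: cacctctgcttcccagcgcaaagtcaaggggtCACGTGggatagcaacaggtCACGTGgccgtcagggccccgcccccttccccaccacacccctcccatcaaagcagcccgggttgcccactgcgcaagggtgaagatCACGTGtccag

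In the first 3 of these sequences, CCAAT boxes stand upstream of a cell cycle homology region near the start. In Cdk1 the CCAAT boxes begin 80 and 48 bases before the start and the homology regions 71 and 15 bases before it, with an E2F motif 130 bases before it. In Cks1b the CCAAT boxes begin at 89 and 41 bases and the homology regions at 77 and 17 bases. In Ccnf they begin at 147 and 107 bases, and the homology regions at 130 and 14 bases. Ccnb2 had 3 CCAAT boxes, at 87, 54 and 21 bases. In E2f8 the E2F motif at 111 bases overlaps a CCAAT box at 112 bases, and a homology region begins at 20 bases. Cdk4 had none of these, and carried E-boxes at 118, 98 and 11 bases. Further matches lay in the searched bases before the printed stretch. There, Ccnb2 had a homology region at 167 bases and Cdk4 an E-box at 172. Cdk1 had an E2F motif at 178 bases and a CCAAT box at 208, and Cks1b had CCAAT boxes at 217 and 177.

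Over the 29 promoter windows of these 25 genes, 18 held a CCAAT box (62.1%), against 33.8% of all 32851 windows in the table. The E2F motif was in 9 windows (31%, against 6.69%), the cell cycle homology region in 9 (31%, against 17.1%) and the E-box in 3 (10.3%, against 6.02%). These are matches of letters in one window and say nothing of whether a factor binds there. The 6 printed promoters all belong to genes with a positive difference below. Of genes with a negative difference, Ccnd3, Cdkn1b and Cdc25a held CCAAT boxes, Cdc25a with E2F motifs, and Ccne1, Cdk6 and Mybl2 held none. Cdkn2c, with a positive difference, held neither a CCAAT box nor a homology region. Whether motifs go with the differences was not tested.

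Most of these regulators were higher in cells from Rip-B7xAI4 mice, but none passed the test. Values are log2 expression as deposited, and differences are Rip-B7xAI4 minus AI4. Of the 33 genes, 26 had a positive and 7 a negative difference. A positive difference was found for 39% of all 13950 tested genes. With limma and an adjusted p of 0.05 over all genes tested as the limit, 0 of the 33 passed, and 0.00717% of all tested genes (1 gene) did. The lowest adjusted p of a regulator was 0.206. At an unadjusted p under 0.05, 10 were higher, where the share over all genes was 5.56%, and 1 was lower, where that share was 3.17%.

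The groups did not overlap for 12 genes. Every Rip-B7xAI4 array was above every AI4 array for 10 of the 33 (30.3%, against 5.99% of all tested genes). Of these 10, 3 (Ccnf, Cdkn2c and Cdc25c) are among the genes with an AI4 mean under the filter limit, for which a higher Rip-B7xAI4 level was a condition of being tested. Rip-B7xAI4 lay below AI4 for 2 (6.06%, against 11.9%). The genes were chosen with earlier results of these data known, so these shares describe them and are no independent support. The median difference of the 33 was 0.45 on the log2 scale, and that of all tested genes was -0.10. It was 0.72 without Rip-B7xAI4 replicate 3 and 0.29 without Rip-B7xAI4 replicate 1. The 11 genes with an unadjusted p under 0.05 became 6 without AI4 replicate 2. Of all genes at that limit, 63.7% were higher in Rip-B7xAI4, against 75.0% after median centring and 54.1% after quantile normalization.

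**Figure D1:**
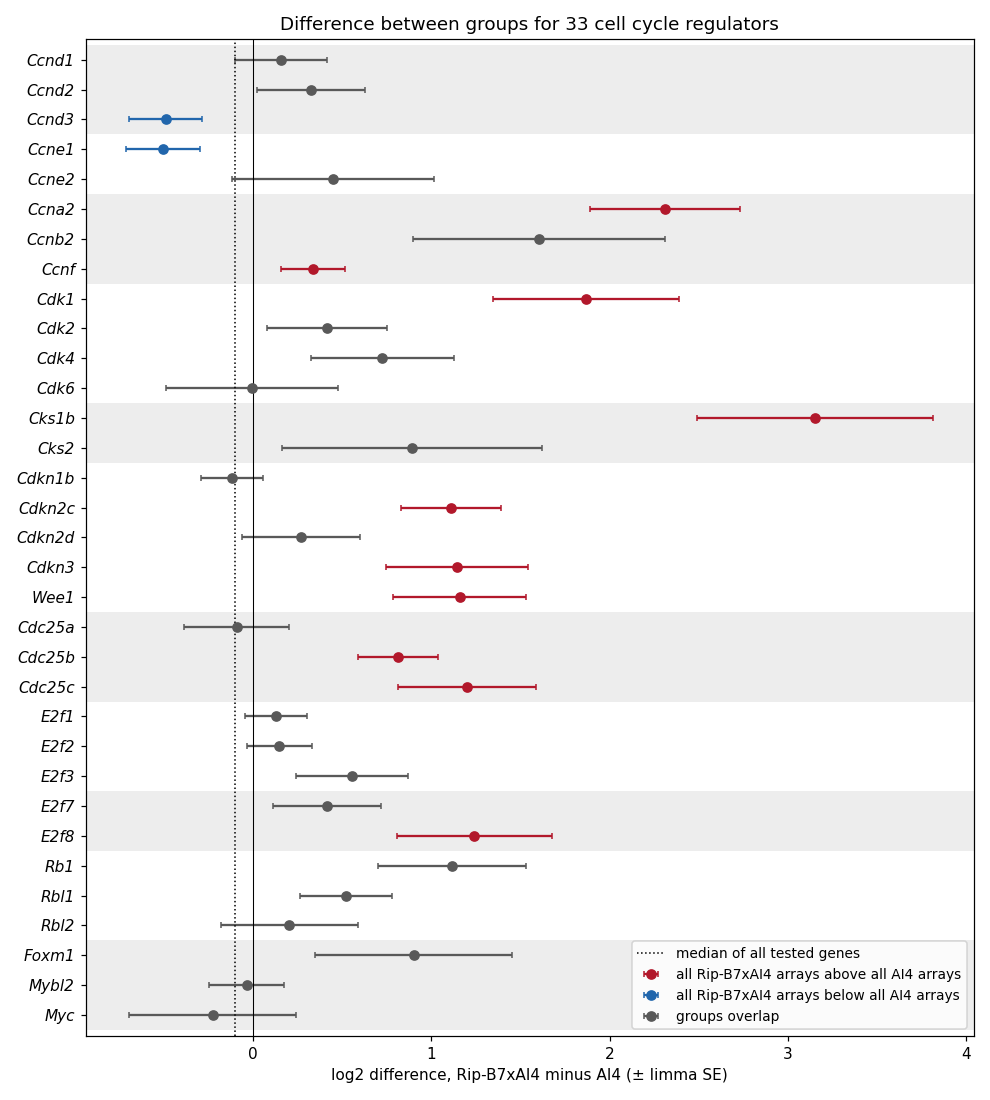
Log2 difference (Rip-B7xAI4 minus AI4, x axis) for each of the 33 regulators (y axis), with limma's standard error as bars, 3 arrays per group, and grey bands to separate the roles. The 10 genes in red and the 2 in blue (Ccnd3 and Ccne1) are those whose groups do not overlap, and the differences run from -0.50 (Ccne1) to 3.15 (Cks1b).

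The sorted cells carried T cell markers throughout, but myeloid markers differed between arrays. The mean of 9 CD8 T cell markers, such as Cd3e and Cd8a, was 10.01 to 10.68 in AI4, against 10.08 to 10.72 in Rip-B7xAI4. Single markers went opposite ways. Cd3e, a chain of the receptor complex, was higher on every Rip-B7xAI4 array, by 0.88 ± 0.42 (SE), while the coreceptor chains Cd8a and Cd8b1 differed by -0.69 ± 0.35 and -1.001 ± 0.39 with groups that overlapped. The mean of 11 macrophage, monocyte and dendritic cell markers was 6.14 to 6.84 in AI4, and stood at 9.15, 6.35 and 8.80 on Rip-B7xAI4 replicates 1, 2 and 3. Of these 11, 2 had groups that did not overlap, both higher in Rip-B7xAI4. The share of all tested genes that lay higher with no overlap was 5.99%. The mean of 5 neutrophil markers was also highest on replicates 1 and 3, at 5.77 to 5.90 in AI4, against 7.87, 6.12 and 7.74 in Rip-B7xAI4. That mean rested on S100a8 and S100a9, higher by 3.61 and 3.79 with no overlap. Ly6g, Mpo and Elane differed by -0.02, -0.10 and -0.14, with groups that overlapped. Lyz2, the lysozyme of myeloid cells, was 11.40, 5.59 and 9.64 in Rip-B7xAI4 and 4.73 to 7.57 in AI4. On Rip-B7xAI4 replicate 2 the mean of the 11 markers lay in the AI4 range, but that of the neutrophil markers lay above it. Cd68 (7.35, against at most 6.49 in AI4) and Fcer1g (6.67, against at most 6.21), 2 of the 11, were above every AI4 array there as well. So were S100a8 (6.01, against at most 5.24) and S100a9 (7.68, against at most 7.29), 2 of the 5. Of all tested genes, 19.7% lay above every AI4 array on replicate 2 and 32.4% below. Csf1r (5.49), Fcgr3 (5.64) and Cd14 (5.27), also among the 11, lay below every AI4 array there. In bulk samples, fewer cells of a type and less RNA per cell cannot be told apart.

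Rip-B7xAI4 replicate 2 was above all 3 AI4 arrays for 19 of the 33 genes, against 19.7% of all tested genes, and below all 3 for 5, against 32.4%. With that array alone against the 3 AI4 arrays, the median difference of the 33 was 0.44. The part of myeloid cells in these values was not tested. By array, the mean of the 33 genes was 6.98, 6.57 and 6.73 in AI4, against 7.76, 7.44 and 7.05 in Rip-B7xAI4. Rip-B7xAI4 replicate 1 was the highest of all 6 arrays for 16 genes, and Rip-B7xAI4 replicate 3 the lowest of its group for 19. AI4 replicate 1 was the highest of its group for 22.

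**Figure D2:**
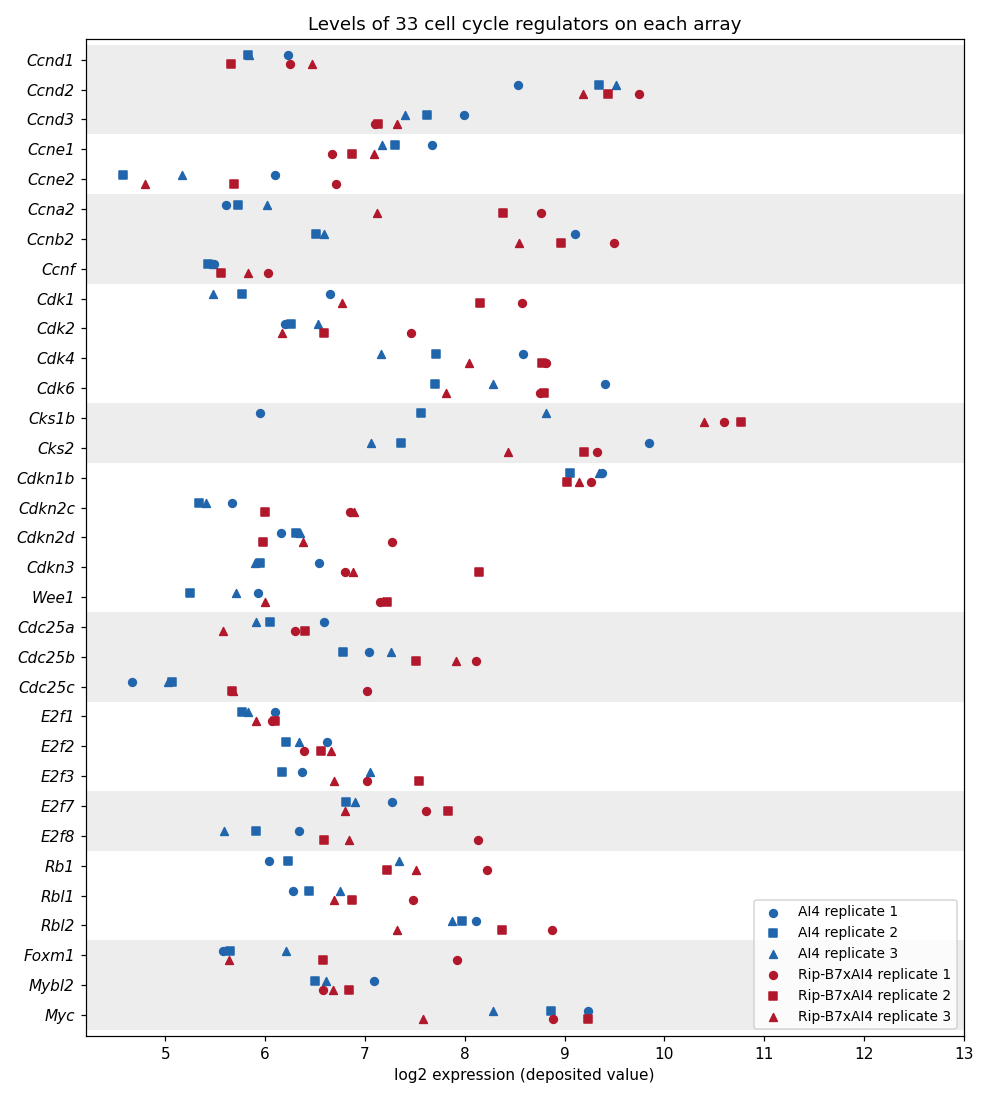
Log2 expression (x axis) of the 33 regulators (y axis, grouped by role) on each of the 6 arrays, AI4 in blue and Rip-B7xAI4 in red, with a marker shape for each replicate. The 3 red points of Ccna2 and Cks1b lie to the right of all blue points, while those of Ccnb2 and Cks2 meet the blue circle of AI4 replicate 1.

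The D-type and E-type cyclins, which act before and at the start of DNA synthesis, did not share a direction. Ccnd3 (cyclin D3), the D-type cyclin of developing and dividing lymphocytes, was 7.996, 7.62 and 7.40 in AI4, against 7.10, 7.13 and 7.32 in Rip-B7xAI4. Every Rip-B7xAI4 array lay below every AI4 array, by a gap of 0.08. The difference was -0.49 ± 0.21 (SE; limma adjusted p = 0.566). Ccne1 (cyclin E1), the activator of Cdk2 at the entry to DNA synthesis, was 7.67, 7.30 and 7.17 in AI4, against 6.66, 6.87 and 7.09 in Rip-B7xAI4. It too was lower on every Rip-B7xAI4 array, by -0.50 ± 0.21 (adjusted p = 0.566).

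Ccnd2 (cyclin D2), which antigen induces in T cells, was 8.53, 9.34 and 9.52 in AI4, against 9.75, 9.44 and 9.18 in Rip-B7xAI4. The groups overlapped, with AI4 replicate 1 the lowest array. The difference was 0.33 ± 0.30, and 0.027 without that array. Ccnd1 (cyclin D1) was 6.23, 5.83 and 5.84 in AI4, against 6.25, 5.65 and 6.47 in Rip-B7xAI4. Its 2 highest arrays were Rip-B7xAI4 replicates 1 and 3, those with the highest mean of the 11 myeloid markers, and replicate 2 was the lowest of all 6. The part of myeloid cells in this was not tested. Ccne2 (cyclin E2) spread from 4.57 to 6.09 in AI4 and from 4.79 to 6.71 in Rip-B7xAI4, with a difference of 0.45 ± 0.57 that was smaller than its standard error and ran from -0.039 to 0.92 when 1 array was left out.

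All 3 measured cyclins of the late cycle had positive differences, and the groups did not overlap for Ccna2 and Ccnf. Ccna2 (cyclin A2), the partner of Cdk2 in DNA synthesis and of Cdk1 before mitosis, was 5.60, 5.73 and 6.02 in AI4, against 8.77, 8.38 and 7.12 in Rip-B7xAI4. The lowest Rip-B7xAI4 array lay 1.11 above the highest AI4 array. The difference was 2.31 ± 0.42 (SE; limma adjusted p = 0.206, with 0.0602 to 0.588 over all alternatives). Against AI4, Rip-B7xAI4 replicate 2 alone differed by 2.60. Ccnb2 (cyclin B2), a mitotic partner of Cdk1, was 9.10, 6.50 and 6.59 in AI4, against 9.50, 8.97 and 8.54 in Rip-B7xAI4. AI4 replicate 1 stood among the Rip-B7xAI4 arrays, so the groups overlapped, and the difference was 1.60 ± 0.71, or 2.46 without that array. Ccnf, which encodes the F-box protein cyclin F and not a kinase partner, was 5.49, 5.43 and 5.48 in AI4, against 6.02, 5.55 and 5.83 in Rip-B7xAI4. Its arrays separated by a gap of 0.06, with a difference of 0.34 ± 0.18. Replicate 2 was the lowest of the Rip-B7xAI4 arrays for Ccnf, and the difference was 0.09 for that array alone. The promoters printed above for Ccnf and Ccnb2 both hold CCAAT boxes.

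Among the kinases, Cdk1 had the largest difference. Cdk1 was 6.65, 5.77 and 5.47 in AI4, against 8.57, 8.15 and 6.77 in Rip-B7xAI4. The groups did not overlap, though Rip-B7xAI4 replicate 3 stood only 0.12 above AI4 replicate 1. The difference was 1.87 ± 0.52 (SE; limma adjusted p = 0.466), and 2.19 for Rip-B7xAI4 replicate 2 alone. Cdk4, which with Cdk6 partners the D-type cyclins, was 8.58, 7.71 and 7.16 in AI4, against 8.81, 8.77 and 8.04 in Rip-B7xAI4. Only AI4 replicate 1 reached the Rip-B7xAI4 range, and the difference was 0.73 ± 0.40. It was 1.11 without that array and 0.40 without AI4 replicate 3. Cdk6 was 9.40, 7.70 and 8.28 in AI4, against 8.76, 8.79 and 7.81 in Rip-B7xAI4. Its groups covered the same range, with a difference of -0.01 ± 0.48 that was 0.06 after median centring and 0.47 without AI4 replicate 1. Cdk2, the kinase of cyclins E and A, differed by 0.41 ± 0.34, with Rip-B7xAI4 replicate 1 (7.46) above the other 5 arrays (6.17 to 6.59). Without replicate 1 the difference of Cdk2 was 0.054.

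The Cks subunits bind cyclin-dependent kinases and help them act on substrates with several phosphorylation sites, and Cks1b also serves the ligase that destroys Cdkn1b. Cks1b was 5.94, 7.56 and 8.81 in AI4, against 10.60, 10.77 and 10.40 in Rip-B7xAI4. The AI4 arrays were spread widely and the Rip-B7xAI4 arrays were close together, and the 2 groups stood 1.59 apart. The difference of 3.15 ± 0.66 (SE; limma adjusted p = 0.278) was the largest of the 33 genes, and ran from 2.41 to 3.84 over the alternatives. For Rip-B7xAI4 replicate 2 alone it was 3.33. Cks2 was 9.85, 7.36 and 7.06 in AI4, against 9.33, 9.19 and 8.43 in Rip-B7xAI4. Here AI4 replicate 1 was the highest of all 6 arrays, where it had been the lowest for Cks1b, and the difference was 0.89 ± 0.73. It was 1.77 without AI4 replicate 1, 0.53 without AI4 replicate 2 and 0.38 without AI4 replicate 3. The array holds 3 probes for Cks2, and the other two gave differences of 0.93 and 0.60. All 3 are annotated to the same transcripts, so what each measures on its own is uncertain.

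Of the 5 genes that slow or stop the kinases, 3 had groups that did not overlap, with Rip-B7xAI4 above AI4. That is 60%, against 5.99% of all tested genes. Cdkn2c (p18), an inhibitor of Cdk4 and Cdk6, was 5.67, 5.33 and 5.41 in AI4, against 6.85, 6.00 and 6.89 in Rip-B7xAI4. The AI4 mean of Cdkn2c, 5.469, was under the filter limit, so it was tested because of its Rip-B7xAI4 values. The groups did not overlap, and replicate 2 was the lowest of its group. The difference was 1.11 ± 0.28 (SE; limma adjusted p = 0.410), and 0.53 for that array alone. Wee1, the kinase that holds Cdk1 inactive until mitosis, was 5.93, 5.25 and 5.71 in AI4, against 7.15, 7.22 and 6.00 in Rip-B7xAI4. Its groups were 0.07 apart, because Rip-B7xAI4 replicate 3 stood close to AI4, and the difference was 1.16 ± 0.37. For Rip-B7xAI4 replicate 2 alone the difference of Wee1 was 1.59. Cdkn3, a phosphatase that acts on Cdk2 and Cdk1, was 6.54, 5.95 and 5.90 in AI4, against 6.80, 8.14 and 6.88 in Rip-B7xAI4. It was highest on replicate 2, with a difference of 1.15 ± 0.40, or 2.01 for that array alone and 0.71 without it.

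The inhibitor of resting T cells, Cdkn1b, showed a small difference in the opposite direction. Cdkn1b was 9.38, 9.05 and 9.34 in AI4, against 9.26, 9.02 and 9.14 in Rip-B7xAI4, a difference of -0.11 ± 0.17 with groups that overlapped. Its 2 probes disagreed in size, since the second gave -0.60, from 9.36 in AI4 to 8.76 in Rip-B7xAI4. Cdkn2d (p19), another inhibitor of Cdk4 and Cdk6, differed by 0.27 ± 0.33. That value rested on Rip-B7xAI4 replicate 1 (7.27), and without this array it was -0.10. It was 0.55 without Rip-B7xAI4 replicate 2.

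The Cdc25 phosphatases remove the inhibitory phosphates that Wee1 places, and the groups did not overlap for Cdc25b and Cdc25c, the members of mitotic entry. Cdc25b was 7.04, 6.78 and 7.26 in AI4, against 8.11, 7.52 and 7.91 in Rip-B7xAI4. All Rip-B7xAI4 arrays were higher, by 0.82 ± 0.23 (SE; limma adjusted p = 0.462). Replicate 2 was the lowest of that group, with a difference of 0.49 for that array alone. Cdc25c was 4.67, 5.06 and 5.02 in AI4, against 7.02, 5.67 and 5.68 in Rip-B7xAI4. Its groups were 0.60 apart, with replicate 1 well above the rest of its group, and the difference was 1.20 ± 0.39, or 0.75 without replicate 1. For Rip-B7xAI4 replicate 2 alone it was also 0.75. Cdc25c had an AI4 mean of 4.92, under the filter limit, and passed through its Rip-B7xAI4 mean of 6.12. Cdc25a, which acts at the start of DNA synthesis, was 5.91 to 6.59 in AI4, against 5.58 to 6.40 in Rip-B7xAI4, a difference of -0.09 ± 0.30.

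Of the activating E2F factors, E2f1 and E2f2 differed little. E2f1 was 6.10, 5.76 and 5.82 in AI4, against 6.07, 6.10 and 5.91 in Rip-B7xAI4, and E2f2 spanned 6.21 to 6.62 in AI4, against 6.39 to 6.66 in Rip-B7xAI4. The differences of 0.13 ± 0.17 for E2f1 and 0.15 ± 0.18 for E2f2 were both smaller than their standard errors. E2f3 was 6.37, 6.17 and 7.05 in AI4, against 7.02, 7.54 and 6.69 in Rip-B7xAI4, a difference of 0.56 ± 0.32, or 0.33 without Rip-B7xAI4 replicate 2. A second E2f3 probe went the other way, by -0.34, and the mean of both probes differed by 0.11. A p above the limit does not show that these genes were at equal levels.

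Of the E2F factors that repress transcription late in DNA synthesis, E2f8 had groups that did not overlap and E2f7 had not. E2f8 was 6.34, 5.91 and 5.58 in AI4, against 8.14, 6.59 and 6.84 in Rip-B7xAI4. Each Rip-B7xAI4 array lay above each AI4 array, and the difference was 1.24 ± 0.43 (SE; limma adjusted p = 0.530). It was 0.77 without Rip-B7xAI4 replicate 1, and 0.64 for Rip-B7xAI4 replicate 2 alone, the lowest of its group. E2f7 was 7.27, 6.81 and 6.90 in AI4, against 7.61, 7.83 and 6.80 in Rip-B7xAI4. Rip-B7xAI4 replicate 3 was the lowest of all 6 arrays here, and the difference was 0.42 ± 0.30. It was 0.72 without that array and 0.21 without Rip-B7xAI4 replicate 2.

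The pocket proteins, which bind E2F factors and keep their targets silent, had positive differences. Rb1, the retinoblastoma protein, was 6.04, 6.22 and 7.34 in AI4, against 8.22, 7.22 and 7.51 in Rip-B7xAI4. AI4 replicate 3 reached into the Rip-B7xAI4 range, so the groups overlapped, and the difference was 1.12 ± 0.41 (SE; limma adjusted p = 0.546). Rbl1 (p107), itself an E2F target, was 6.28 to 6.75 in AI4, against 6.69 to 7.48 in Rip-B7xAI4, a difference of 0.52 ± 0.26, or 0.29 without Rip-B7xAI4 replicate 1. Rbl2 (p130), the pocket protein of resting cells, differed by 0.20 ± 0.38, with values of 7.87 to 8.11 in AI4, against 7.32 to 8.87 in Rip-B7xAI4. After quantile normalization the difference of Rbl2 was -0.03.

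The 3 transcription factors did not separate the groups. Foxm1, which switches on mitotic genes, was 5.58, 5.65 and 6.21 in AI4, against 7.93, 6.58 and 5.64 in Rip-B7xAI4. Rip-B7xAI4 replicate 1 stood far above the rest and replicate 3 was at the AI4 level, and the difference was 0.90 ± 0.55. It was 0.30 without replicate 1 and 1.44 without replicate 3. Mybl2 (B-Myb), the partner of the MuvB complex, was 7.09, 6.50 and 6.61 in AI4, against 6.58, 6.84 and 6.68 in Rip-B7xAI4. Its difference was -0.03 ± 0.21, and 0.03 after median centring. Myc, the growth regulator of activated T cells, was 9.24, 8.86 and 8.29 in AI4, against 8.89, 9.24 and 7.59 in Rip-B7xAI4. Its difference was -0.23 ± 0.47. Myc was lowest on Rip-B7xAI4 replicate 3, and without that array the difference was 0.27.

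The genes that these regulators act on or act with were counted in lists chosen by function, with earlier results of these data known. Of their members, 0 passed an adjusted p of 0.05 in limma. With array weights, 3 genes of the mitosis list (Birc5, Cenpe and Prc1) passed it. Among 19 tested genes of DNA replication that E2F factors control, 18 had a positive difference, with a median of 0.83. At an unadjusted p under 0.05, 10 were higher and 0 lower, or 52.6% against 5.56% of all tested genes for those higher. The groups did not overlap for 8 higher genes (42.1%, against 5.99%) and 1 lower gene, Cdt1 (5.26%, against 11.9%). The count of 10 became 3 when either AI4 replicate 2 or AI4 replicate 3 was left out, 6 when Rip-B7xAI4 replicate 1 was, and 5 when Rip-B7xAI4 replicate 2 was. On Rip-B7xAI4 replicate 2, 15 of the 19 lay above all AI4 arrays, where 19.7% of all tested genes did. The 8 became 14 without AI4 replicate 1 or Rip-B7xAI4 replicate 3, and 4 after quantile normalization. Rfc4, a subunit of the clamp loader, was 5.11, 4.91 and 5.17 in AI4, against 6.66, 6.17 and 5.72 in Rip-B7xAI4, a difference of 1.12 ± 0.26. Its AI4 mean of 5.06 was under the filter limit, so it was tested because of its Rip-B7xAI4 values. Dut, which clears dUTP, differed by 1.08 ± 0.29, and Pcna, the replication clamp, by 0.83 ± 0.24.

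All 17 tested genes of mitosis that FoxM1 and MuvB control had a positive difference, with a median of 1.61, and 16 did without AI4 replicate 3. At an unadjusted p under 0.05, 11 were higher (64.7%, against 5.56% of all tested genes) and 0 lower, with 9 to 14 higher when any 1 array was left out. The groups did not overlap for 10, all higher (58.8%, against 5.99%), and 16 of the 17 lay above all AI4 arrays on Rip-B7xAI4 replicate 2, where 19.7% of all tested genes did. The AI4 mean of 4 of the 17 was under the filter limit, and 3 of these 4 (Bub1b, Ttk and Prc1) are among the 10 and among the 11. Prc1, which bundles spindle microtubules, was 5.14, 4.71 and 5.55 in AI4, against 7.38, 7.65 and 7.07 in Rip-B7xAI4. Its arrays stood 1.52 apart, with a difference of 2.23 ± 0.27 (SE; limma adjusted p = 0.145). Its AI4 mean of 5.13 was under the filter limit and its Rip-B7xAI4 mean was 7.37, so that a difference was a condition of its being tested. Birc5 (survivin) differed by 2.32 ± 0.40 and the kinetochore motor Cenpe by 2.29 ± 0.42. Several of these genes also belong to a cell division list examined earlier on these arrays, so they are no independent support.

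**Figure D3:**
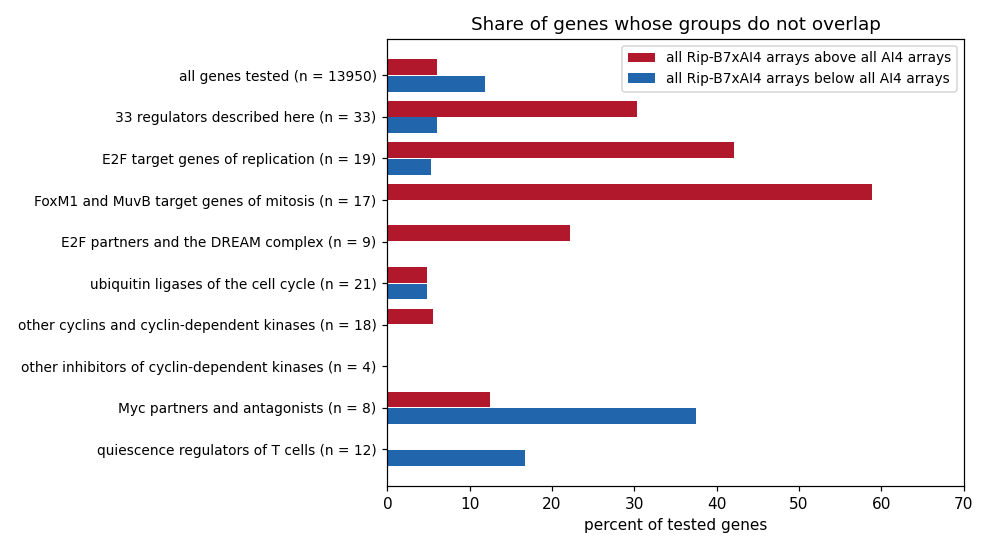
Percent of tested genes (x axis) in each list (y axis, with its number of tested genes) whose 3 Rip-B7xAI4 arrays all lie above (red) or all below (blue) the 3 AI4 arrays. The 33 regulators stand at 30.3% and 6.06% and all tested genes at 5.99% and 11.9%.

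Of 9 tested E2F partners and DREAM complex genes, 2 had groups that did not overlap, both higher (22.2%, against 5.99% of all tested genes). These were Tfdp2, a dimer partner of E2F factors, by 0.99 ± 0.26, and Rbbp4, a histone-binding MuvB subunit, by 0.70 ± 0.24. Lin37, a MuvB subunit, differed by -0.67 ± 0.34. In 21 genes of the ubiquitin ligases that destroy cyclins and inhibitors, 1 lay higher and 1 lower with no overlap. That is 4.76% each against 5.99% and 11.9% of all tested genes, so these 2 counts show nothing about the list. Of the 21, 15 had a positive difference (71.4%, against 39% of all tested genes). Their median difference was 0.45, where that of the 33 regulators was also 0.45. After quantile normalization it was 0.26 for the 21 and 0.47 for the 33. Ube2c, the ubiquitin-conjugating enzyme of the anaphase-promoting complex, was 6.02, 6.13 and 5.71 in AI4, against 7.15, 6.83 and 7.19 in Rip-B7xAI4, a difference of 1.10 ± 0.20. Cdc20, which activates that complex, differed by 0.50 ± 0.22, and its subunit Cdc26 by -0.93 ± 0.34.

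Other cyclins and kinases, most of them regulators of transcription, had 14 positive differences of 18 tested (77.8%, against 39% of all tested genes). At an unadjusted p under 0.05, 2 were higher (11.1%, against 5.56%) and 0 lower. The groups did not overlap for 1, Ccng1, a target of p53, higher by 1.20 ± 0.44 (5.56%, against 5.99%). Ccnk and Ccng2 differed by 0.97 ± 0.38 and 0.61 ± 0.27. Their median was 0.19, and 0.00 after quantile normalization. Of 4 other tested kinase inhibitors 0 separated the groups, with Cdkn1c at -0.35 ± 0.18, Pkmyt1 at 0.26 ± 0.21 and Cdkn2a at 0.09 ± 0.17.

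Of 8 partners and antagonists of Myc, 1 lay higher (12.5%, against 5.99% of all tested genes) and 3 lower (37.5%, against 11.9%) with no overlap, and 0 had an unadjusted p under 0.05. Max, the obligate partner of Myc, differed by 0.62 ± 0.29, Mnt, an antagonist, by -0.37 ± 0.18, and Mlx by 0.41 ± 0.22. In 12 quiescence regulators of T cells, 0 were higher and 2 lower with no overlap, Foxp1 and Tsc2. That is 16.7% against 11.9% of all tested genes, close to the background. Foxp1, which helps keep naive T cells at rest, was 8.87, 8.55 and 9.07 in AI4, against 7.85, 7.74 and 7.40 in Rip-B7xAI4. Its difference of -1.17 ± 0.22 (SE; limma adjusted p = 0.206) was followed by Foxo1 at -0.32 ± 0.22 and Tsc2 at -0.21 ± 0.17.

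**Figure D4:**
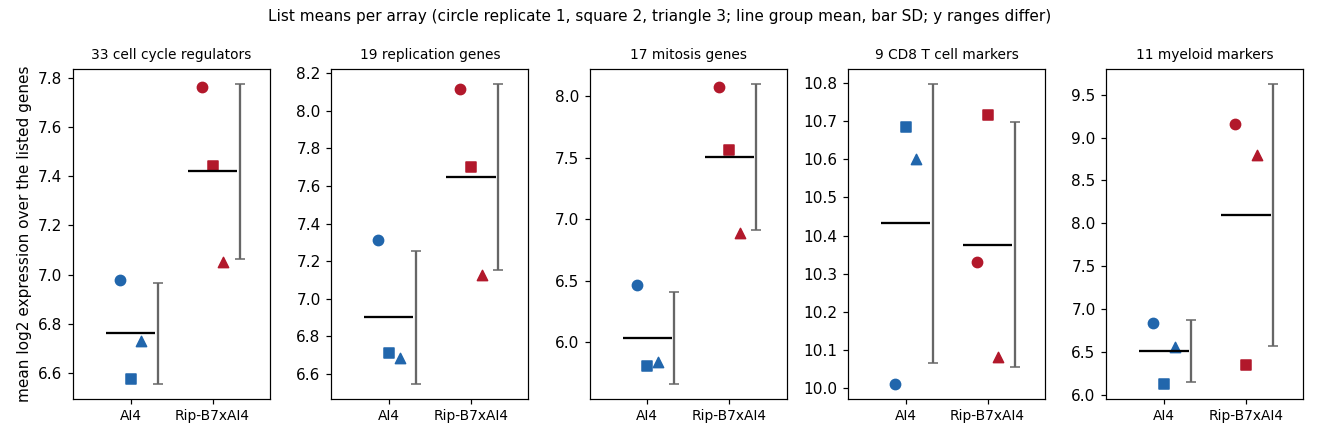
Mean log2 expression per array (y axis, ranges differ between panels) of the 33 regulators, 2 lists of genes they control, 9 CD8 T cell markers and 11 myeloid markers, for the AI4 and Rip-B7xAI4 arrays (x axis), with the group mean as a line and the SD over 3 arrays as a bar. Replicate 2 of Rip-B7xAI4 (red square) is at 6.35 for the myeloid markers, within the AI4 range of 6.14 to 6.84, and at 7.44 for the regulators, above all AI4 arrays.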

How the data were processed

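Total RNA of the sorted cells was hybridised to 6 single-colour arrays. The submitters' processing notes name Affymetrix Expression Console, and the sources used here give no version or algorithm. The authors' deposited values, 1 per probe and array, were taken as log2 from their range and used without further normalization (array medians 5.94 to 6.10, so no depth applies). Platform annotation gave 21760 of 28325 probes 1 gene symbol. The probe with the highest mean stood for each of 19929 genes. Genes with a mean under 5.471 (the lowest 30%) were not tested, which left 13950. Groups came from titles. limma 3.58.1 in R 4.3.3 (lmFit and eBayes, group term only, two-sided, Benjamini-Hochberg over all tested genes, limit 0.05) gave differences and standard errors, and no background measure was used. Named genes were all regulators and up to 3 members of each further list by smallest p. The genes and lists were chosen with earlier results of these data known. Alternatives were a replicate block, leaving out each array, Rip-B7xAI4 replicate 2 alone, quantile normalization, median centring, no or a 50% filter, the mean of probes, eBayes with trend and robust, and array weights. On simulated data of 13950 genes the fit found 22.8% of genes with a true log2 difference of 1, and 85.4% at 2. There, 200 genes of each set were changed by 1, 2, 3 or 4, which eases the adjusted limit. In the data 1 gene passed and Ccna2, at 2.31, did not, so these shares do not carry over to the regulators.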

Additional observations from a re-analysis of the deposited data

How the results depend on the processing

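None of the 33 regulators passed an adjusted p of 0.05 in limma under any of the 15 alternatives run, and each set of values below is the log2 difference or count named. The median difference stayed positive throughout. Whether the replicate numbers pair the arrays cannot be told from 3 arrays per group. Same-numbered arrays had deviations from their group means that correlated at -0.08, 0.06 and -0.22. The replicate block changed the standard error of Cdk1 from 0.52 to 0.29 and that of Ccnd3 from 0.21 to 0.26. Genes past the limit, 1 of 13950, became 0 with the replicate block, 38 with array weights and 0 to 22 when 1 array was left out. Regulators with an unadjusted p under 0.05, 11 of 33, became 12 with the replicate block, 17 with array weights and 6 to 14 when 1 array was left out. Regulators whose groups did not overlap, 12, became 24 with Rip-B7xAI4 replicate 2 alone, where 1 array is easier to separate. Of 489 differences of single regulators under alternatives, 25 changed sign, in 8 genes. With Rip-B7xAI4 replicate 2 alone the sign changed for Ccnd1 (-0.31), Cdk6 (0.33), Cdkn2d (-0.29), Cdc25a (0.22), Mybl2 (0.11) and Myc (0.44). With array weights it changed for Cdk6 (0.59), Cdkn2d (-0.045), Cdc25a (0.13), Mybl2 (0.18) and Myc (0.055). Median centring changed it for Cdk6 (0.061) and Mybl2 (0.033), and quantile normalization for Rbl2 (-0.030). With 1 array left out, the differences that changed sign ran from -0.015 to 0.39 (Ccnd1), -0.039 to 0.92 (Ccne2), -0.39 to 0.47 (Cdk6), -0.095 to 0.55 (Cdkn2d), -0.24 to 0.17 (Cdc25a), -0.14 to 0.64 (Rbl2), -0.15 to 0.14 (Mybl2) and -0.56 to 0.27 (Myc). The cause was not tested. A pseudocount did not apply to log2 values. With 3 arrays per group and no measure of background, differences of dim genes are the least certain.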
